A study of Mus musculus with 12 samples.

Results

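The 32 genes described here encode the glutamate receptors of the mouse lateral septum and the proteins that hold them at the synapse. They were found in the table by gene symbol: 4 AMPA receptor genes (Gria1 to Gria4), 6 NMDA receptor genes (Grin1, Grin2a to Grin2d and Grin3a), 5 kainate receptor genes (Grik1 to Grik5), 1 delta receptor gene (Grid1), 6 metabotropic receptor genes (Grm2, Grm3, Grm4, Grm5, Grm7 and Grm8), 6 genes of transmembrane AMPA receptor regulatory proteins (Cacng2, Cacng3, Cacng4, Cacng5, Cacng7 and Cacng8) and 4 scaffold genes (Dlg4 and Shank1 to Shank3). They are 32 of the 54532 genes in the deposited table, and 32 of 32 passed the expression filter, which asked for 1 FPKM or more in 6 or more libraries and left 13345 genes. FPKM divides each gene's reads by its length in kilobases and by a measure of the depth of the library, which the sources used here do not define.

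The groups were 6 libraries of wild-type mice injected with CFA, which in pain research stands for complete Freund's adjuvant, an agent that causes lasting local inflammation, and 6 libraries of wild-type mice injected with saline. All 12 were bulk RNA of lateral septum labelled day 3. The labels give no age, sex or strain, and they do not state whether each library is a different animal. The p-values therefore measure the spread between the 12 samples only, and part of that spread may be technical. RNA was read in bulk, so fewer cells of a type and less RNA per cell cannot be told apart.

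Glutamate is the main fast excitatory transmitter of the brain. AMPA receptors carry most of the fast current, NMDA receptors pass calcium when transmitter and depolarisation coincide, kainate receptors work on both sides of the synapse, and metabotropic receptors signal through G proteins. Transmembrane AMPA receptor regulatory proteins of the subgroup called type I bring AMPA receptors to the surface and slow their closing. Scaffolds of the Dlg and Shank families tie receptors to the postsynaptic density. The lateral septum is built mostly of GABAergic neurons, which receive dense glutamatergic input from the hippocampus.

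Depth, recovered from FPKM and gene length, was 33557379 to 39153360 reads per library. The GABAergic markers Gad1, Gad2 and Slc32a1 were high in all 12 and summed to 361 to 446 FPKM in CFA and 384 to 472 FPKM in saline libraries, and the lateral septum list (Trpc4, Crhr2, Zic1, Zic4, Nts and Meis2) was above 0 in all 12. That list summed to 152 to 208 FPKM in CFA and 159 to 206 FPKM in saline libraries, with 1 of its 6 genes positive, 5 negative and a median difference of -0.14 (0 past the threshold by limma, 0 at an unadjusted p under 0.05). Markers of neighbouring regions varied between libraries of each group. Choroid plexus markers (Ttr, Clic6, Kl, Folr1, Kcne2, Aqp1 and Slc4a5) summed to 2355 FPKM in saline 3 and 734 FPKM in saline 5. In the other libraries they summed to 16.6 to 81.8 FPKM. A fit without saline 3 and saline 5 together is among the alternatives at the end. Xist, which is transcribed from the inactive X chromosome of females, was above 1 FPKM in 5 CFA and 2 saline libraries, and the Y-linked genes Ddx3y, Uty, Kdm5d and Eif2s3y were above 1 FPKM in the other libraries, 1 CFA and 4 saline. The comparison is thus unbalanced for sex as these genes show it. With Xist as a covariate 0 of 32 members passed, and the differences were -0.29 for Grin2b, -0.12 for Grin1, -0.11 for Grin3a, -0.16 for Shank1 and 0.21 for Grm7. CFA 4 stood apart from the other 11 libraries in how its values depended on GC content.

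The 16 ionotropic receptor genes, those of the AMPA, NMDA, kainate and delta classes, share an ancestor, and the longest stretch of protein found in all 16 reading frames was 7 codons. It lies in the third membrane segment, which forms the channel gate. The coding bases of that stretch are printed to show how GC content differs between related genes. Differences between the groups are set against GC content further below. The protein is the same in all 16 genes. The third codon positions that are G or C, in capitals, number between 2 of 7 (Gria3 and Gria4) and 6 of 7 (Grik3, Grik4 and Grik5). Each lies within 1 exon. Sequences are the sense strand of GENCODE M21 transcripts, build GRCm38 (mm10), 5′ to 3′.
Gria1, chr11:57283574-57283594, plus strand: taCacagcCaaCctGgctgcC
Gria2, chr3:80702572-80702592, minus strand: taCacGgctaaCttagctgcC
Gria3, chrX:41620861-41620881, plus strand: taCactgcaaaCcttgctgct
Gria4, chr9:4462020-4462040, minus strand: taCactgctaatctGgctgca
Grin1, chr2:25297202-25297222, minus strand: taCactgcCaaCctGgcagcC
Grin2a, chr16:9653450-9653470, minus strand: taCacagcCaaCctGgctgcC
Grin2b, chr6:135772247-135772267, minus strand: taCactgcCaaCttagcCgcC
Grin2c, chr11:115253752-115253772, minus strand: taCacGgcCaatctGgcagcC
Grin2d, chr7:45854282-45854302, minus strand: tatacagcCaatctGgctgcC
Grin3a, chr4:49770473-49770493, minus strand: taCacagcGaaCttGgctgct
Grik1, chr16:87936012-87936032, minus strand: taCactgcCaaCctGgctgcC
Grik2, chr10:49240693-49240713, minus strand: tatacCgctaaCctagcCgcC
Grik3, chr4:125694045-125694065, plus strand: taCacGgcCaaCctGgctgcC
Grik4, chr9:42543872-42543892, minus strand: taCacGgcCaaCctGgcagcC
Grik5, chr7:25015922-25015942, minus strand: taCacGgcCaaCctGgctgcC
Grid1, chr14:35452344-35452364, plus strand: taCacagcCaaCctGgcCgct
GC content of the 21 bases ran from 47.6% in Gria3 and Gria4 to 66.7% in Grik3, Grik4 and Grik5. Across whole transcripts the spread of GC content was wider. The stretch did not follow the whole transcript in every gene, and Grin2d had 52.4% in the stretch. GC content of the longest coding transcript was 36.8% for Gria2, 37.9% for Grik2 and 65.0% for Grin2d, and it was 65.1% for Cacng8, with a median of 51.5% over the 32 genes and 50.2% over the genes tested that could be matched.

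Gria1, which encodes the AMPA subunit that is most mobile at plastic synapses, was the highest of the 32 genes. Its lowest, median and highest values were 116, 138 and 159 FPKM in CFA libraries and 128, 140 and 147 FPKM in saline libraries. The 6 CFA libraries lay on both sides of the saline range, 2 below and 2 above it. The log2(FPKM + 1) difference of CFA minus saline was -0.0046 with a 95% interval of -0.17 to 0.16 (limma adjusted p = 0.993). Gria2, whose edited subunit keeps calcium out of AMPA channels, had 38.2, 48.5 and 54.4 FPKM in CFA libraries against 41.4, 44.4 and 46.7 FPKM in saline libraries. CFA libraries were above the saline range in 4 cases and below it in 1, CFA 4, and the difference was 0.11 (SE 0.07, limma adjusted p = 0.770). Without CFA 4 it was 0.17 (SE 0.05, limma adjusted p = 0.182). Gria3 and Gria4 were the lowest of the class, at 14.4 to 21.6 and 13.4 to 16.4 FPKM in CFA libraries against 16.7 to 18.3 and 14.0 to 16.6 FPKM in saline libraries.

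As a share of summed AMPA subunit FPKM, Gria1 made up a median of 61.6% (59.4% to 70.4%) in CFA libraries and 64.1% (63.4% to 66.4%) in saline libraries. Gria2 made up 22.4% (17% to 25.2%) in CFA libraries and 20.7% (19.3% to 21.3%) in saline libraries. The order Gria1, Gria2, then Gria3 held without overlap of values over the 12 libraries, whereas Gria3 and Gria4 overlapped. FPKM divides by the deposited gene length, which ran from 1.00 to 2.57 times the length of the longest coding transcript over the 32 genes and was 1.90 times it for Gria3, 2.27 for Grin1, 2.09 for Dlg4 and 2.57 for Grm8, so the order of levels between genes depends on that length. FPKM counts edited and unedited Gria2 together.

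Among the AMPA receptor regulatory proteins, Cacng7, of the subgroup called type II, was the highest. It had 49.8, 58.8 and 61.8 FPKM in CFA libraries and 57.0, 59.2 and 60.6 FPKM in saline libraries, with 3 CFA libraries below and 3 above the saline range (difference -0.04, limma adjusted p = 0.881). Cacng8, the form best known from hippocampus, had 36.5, 39.8 and 45.8 FPKM in CFA libraries and 38.5, 43.1 and 46.9 FPKM in saline libraries (difference -0.08, SE 0.07, limma adjusted p = 0.819). Cacng3, a type I form of cortex, had 15.0, 16.4 and 19.0 FPKM in CFA libraries and 12.8, 14.0 and 18.7 FPKM in saline libraries. Only 1 CFA library was above the saline range, and the difference of 0.17 (SE 0.09) did not pass (limma adjusted p = 0.705). Cacng5, Cacng4 and Cacng2, the last of which encodes stargazin, averaged 33.7, 26.2 and 7.14 FPKM over the 12 libraries, and their differences lay between -0.08 and 0.05. Stargazin's gene was thus the lowest of the 6, without overlap with Cacng3.

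**Figure D1:**
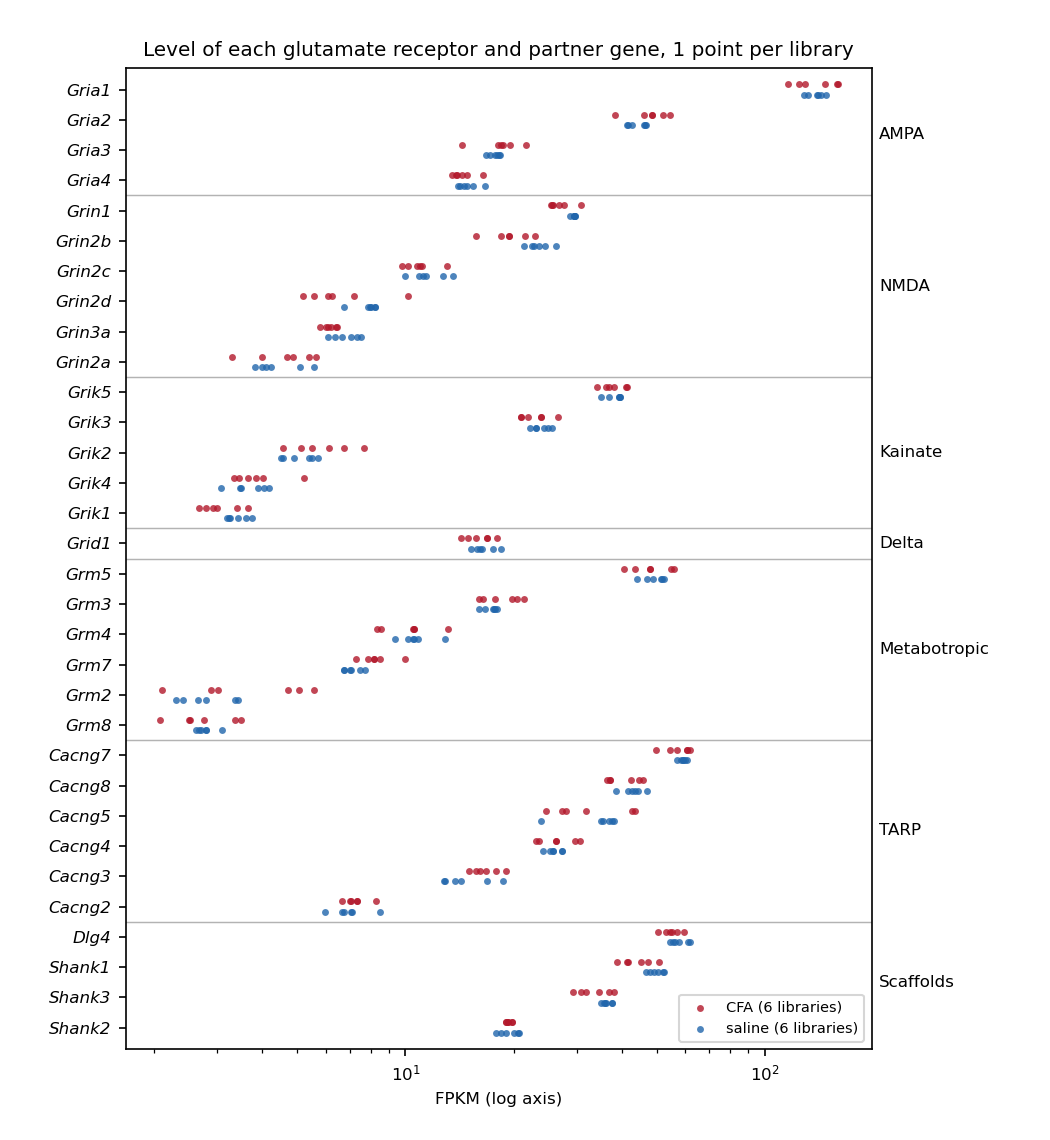
FPKM of the 32 genes on a log axis, 1 point per library, with 6 CFA libraries in red above 6 saline libraries in blue in each row, ordered by mean within each class. Levels span from 2.08 FPKM for Grm8 to 159 FPKM for Gria1, and the 2 groups overlap for every gene.

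The NMDA receptor genes held 3 of the 5 smallest p values among the 32. Grin1, the subunit every NMDA receptor needs, had 25.4, 26.2 and 30.8 FPKM in CFA libraries against 28.7, 29.5 and 29.7 FPKM in saline libraries. Of the CFA libraries, 5 lay below every saline library and CFA 4 lay above every one. The difference was -0.12 (SE 0.05, limma adjusted p = 0.539; exact permutation p = 0.0238 over 924 assignments, two-sided, with no adjustment for the number of genes). Without CFA 4 it was -0.16 (SE 0.03, limma adjusted p = 0.104), the smallest adjusted p of any of the 32 in that fit.

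Grin2b, the subunit with slow closing that dominates early forebrain synapses, had 15.7, 19.4 and 22.9 FPKM in CFA libraries against 21.4, 23.2 and 26.3 FPKM in saline libraries. The 4 lowest CFA libraries were below the saline range and none was above it. The difference of -0.26 (SE 0.08, 95% interval -0.42 to -0.09) had the smallest p of the 32 genes and did not pass (limma adjusted p = 0.389; exact permutation p = 0.0152 before adjustment). Grin3a, whose subunit lowers calcium entry, had 5.79, 6.17 and 6.44 FPKM in CFA libraries and 6.09, 6.87 and 7.53 FPKM in saline libraries (difference -0.13, SE 0.05, limma adjusted p = 0.590). There 2 CFA libraries were below the saline range.

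Grin2d, typical of interneurons and of early development, had 5.20, 6.18 and 10.1 FPKM in CFA libraries and 6.74, 7.99 and 8.25 FPKM in saline libraries. The highest value was again CFA 4, and 4 other CFA libraries were below the saline range. The difference was -0.22 (SE 0.12, limma adjusted p = 0.710), and without CFA 4 it was -0.33 (SE 0.07, limma adjusted p = 0.110). Grin2c, found in cerebellum and in astrocytes, had 9.81 to 13.1 FPKM in CFA libraries and 10.0 to 13.6 FPKM in saline libraries. Grin2a, the faster subunit that gains on Grin2b as forebrain synapses mature, had the lowest mean of the class, at 3.29 to 5.63 FPKM in CFA libraries and 3.81 to 5.58 FPKM in saline libraries.

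Summed over the 6 NMDA genes, FPKM was 80.4, 73.1, 75.1, 83.2, 70.6 and 68.4 in CFA 1 to CFA 6 against 81.9 to 86.4 in the saline libraries. CFA 4 was the single CFA library inside the saline range, and the other 5 were below it. The sum over the 4 scaffold genes had the same layout. It was 150.0, 154.4, 152.7, 168.0, 141.3 and 145.1 FPKM in CFA 1 to CFA 6 against 155.5 to 169.8 FPKM in the saline libraries. The layout was thus not particular to the NMDA genes. Both sums are given as descriptions, since the genes were grouped with earlier results of these data known. Within the Grin2 genes, Grin2b made up a median of 46.9% of summed FPKM (43.2% to 48.8%) in CFA libraries and 50.1% (45.1% to 53.3%) in saline libraries, and Grin2a 11.2% (7.15% to 15.5%) in CFA libraries and 8.80% (8.22% to 11.6%) in saline libraries. The ranges overlap for both.

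Kainate receptor genes were led by Grik5, whose high-affinity subunit works only with a partner from Grik1 to Grik3. Grik5 had 34.2, 37.5 and 41.2 FPKM in CFA libraries and 35, 39.3 and 39.5 FPKM in saline libraries (difference -0.01, 95% interval -0.12 to 0.10, limma adjusted p = 0.976). Grik3 had 20.9, 22.9 and 26.5 FPKM in CFA libraries and 22.2, 23.7 and 25.5 FPKM in saline libraries (difference -0.05, SE 0.06, limma adjusted p = 0.879). In neither gene did the CFA libraries lie to one side of the saline ones. The other 3 were far lower. Grik2, whose subunit is also edited, had 4.57 to 7.68 FPKM in CFA libraries and 4.50 to 5.71 FPKM in saline libraries, with a difference of 0.18 (SE 0.10, limma adjusted p = 0.715). Grik4 and Grik1 averaged 3.80 and 3.24 FPKM over the 12 libraries. Grid1, whose receptor binds cerebellin at the synapse more than it opens as a channel, had 14.3, 16.3 and 17.9 FPKM in CFA libraries and 15.3, 16.2 and 18.4 FPKM in saline libraries (difference -0.04, limma adjusted p = 0.920).

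The metabotropic genes were led by Grm5, a group I receptor that couples to Gq and binds Homer proteins. Grm5 had 40.4, 47.9 and 56.0 FPKM in CFA libraries and 44.2, 50.03 and 52.4 FPKM in saline libraries, with 2 CFA libraries on each side of the saline range (difference -0.03, SE 0.08, limma adjusted p = 0.957). Grm3, a group II receptor of neurons and astrocytes, had 16.1, 18.8 and 21.4 FPKM in CFA libraries and 16, 17.6 and 18 FPKM in saline libraries (difference 0.10, SE 0.07, limma adjusted p = 0.779). Grm7, a group III receptor of presynaptic release sites, was the one member with an unadjusted p under 0.05 and a positive difference. It had 7.30, 8.18 and 9.95 FPKM in CFA libraries against 6.73, 7.04 and 7.74 FPKM in saline libraries. All but CFA 5 were above the saline range. The difference was 0.19 (SE 0.06, 95% interval 0.06 to 0.33), which did not pass (limma adjusted p = 0.401; exact permutation p = 0.00866 before adjustment).

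Grm2, the other group II receptor, varied most of the 32, with a coefficient of variation of 34.1% over the 12 libraries. It had 2.11, 3.86 and 5.58 FPKM in CFA libraries and 2.30, 2.73 and 3.43 FPKM in saline libraries, and its difference of 0.31 (SE 0.17) did not pass (limma adjusted p = 0.712). CFA 2, CFA 3 and CFA 4 were above the saline range, at 4.71, 5.06 and 5.58 FPKM, and CFA 1 was below it. Grm4 and Grm8, both group III, averaged 10.5 and 2.78 FPKM with differences of -0.06 and -0.0067.

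All 4 scaffold genes had negative differences, and none passed. That of Shank2 was close to 0 and turned positive as TPM, by voom and under other alternatives given at the end. Dlg4, which encodes PSD-95, had 50.3, 54.7 and 59.5 FPKM in CFA libraries and 54.5, 56.9 and 61.9 FPKM in saline libraries (difference -0.07, SE 0.05, limma adjusted p = 0.767). Shank1, which links the PSD-95 layer to Homer and the actin skeleton, had 38.7, 43.5 and 50.8 FPKM in CFA libraries against 46.8, 49.9 and 52.5 FPKM in saline libraries. Of the CFA libraries 4 were below the saline range, and CFA 4 was the highest of them. Its difference was -0.18 (SE 0.06, limma adjusted p = 0.463; exact permutation p = 0.0238 before adjustment), and without CFA 4 it was -0.22 (SE 0.05, limma adjusted p = 0.119). Shank3, a gene of striatal and cortical synapses, had 29.2, 33.2 and 38.1 FPKM in CFA libraries and 34.9, 36.0 and 37.5 FPKM in saline libraries (difference -0.12, SE 0.06, limma adjusted p = 0.694). Shank2 was the steadiest of the 32, at 19.0 to 19.8 FPKM in CFA libraries and 17.9 to 20.7 FPKM in saline libraries (difference -0.00095, 95% interval -0.09 to 0.09).

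**Figure D2:**
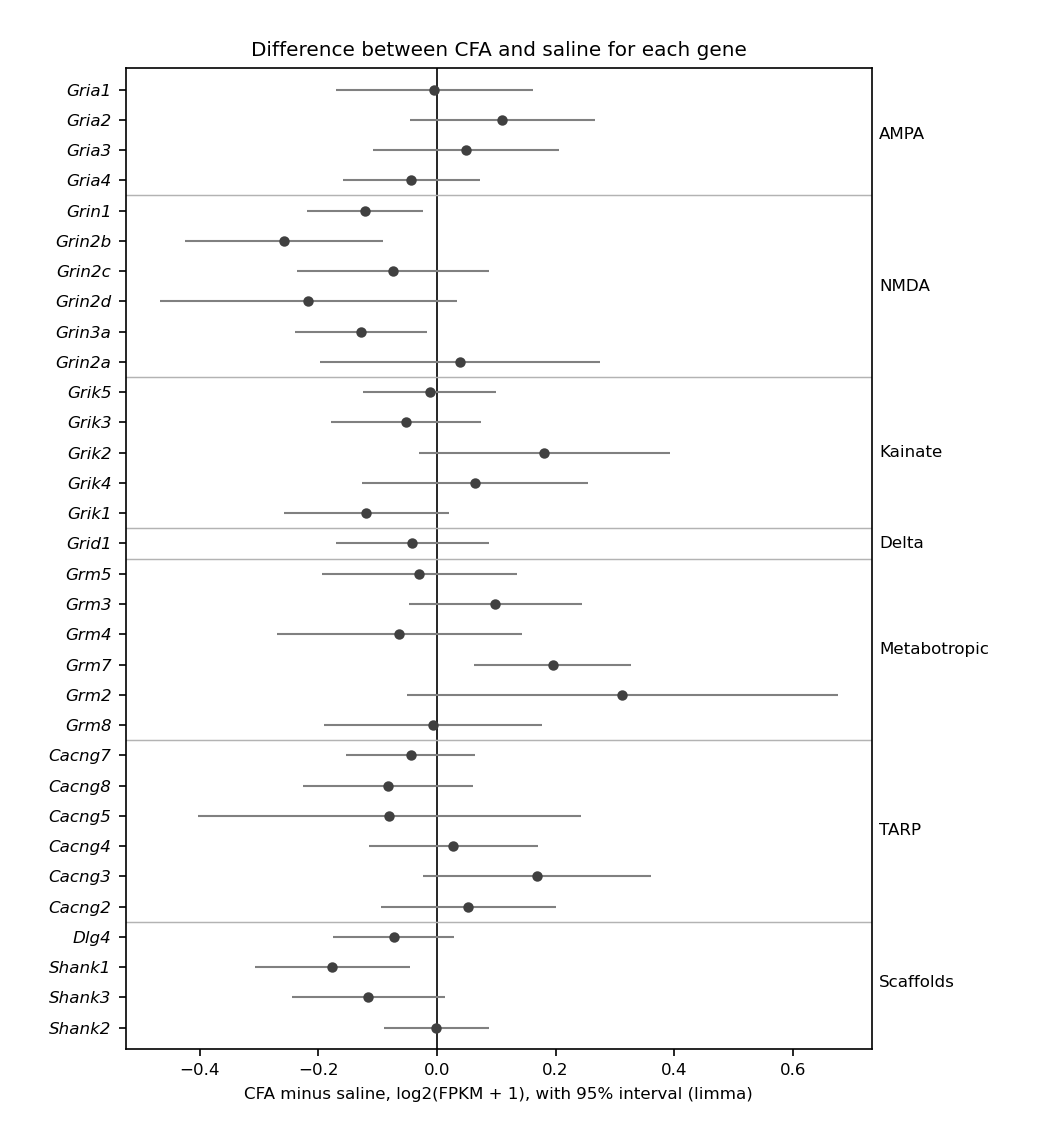
CFA minus saline differences, in units of log2(FPKM + 1), for the 32 genes by class, with points for the limma estimate and bars for its 95% interval. The intervals of Grin1, Grin2b, Grin3a, Shank1 and Grm7 exclude 0 before adjustment, and 0 of 32 passed after adjustment over all genes tested.

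Read against all genes, 0 of 32 members passed the adjusted threshold of 0.05 by limma, where 4 of 13345 genes (0.03%) did, and voom on the recovered reads also gave 0 of 32. At an unadjusted p under 0.05 there were 5 of 32 members (15.6%), against 7.67% of all genes tested. Of these, 4 were lower in CFA libraries (12.5% of members, against 4.56% of all genes) and 1 was higher (3.12%, against 3.11%). In no member did the CFA and saline libraries separate without overlap, as they did in 0.495% of all genes. Of the members, 11 had positive and 21 negative differences, a positive share of 34.4% against 48% of all genes, and their median difference was -0.04 against -0.0043 over all genes. By class, the median was 0.02 for AMPA (2 positive, 2 negative), -0.12 for NMDA (1 positive, 5 negative), -0.01 for kainate (2 positive, 3 negative), 0.05 for metabotropic (3 positive, 3 negative), -0.0083 for AMPA receptor regulatory proteins (3 positive, 3 negative) and -0.09 for scaffolds (0 positive, 4 negative). With every library rescaled to TPM, the median of the 32 was 0.0024 (16 positive, 16 negative), and that of all genes tested was 0.03.

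CFA 4 was the highest of the 12 libraries for 8 members, Grin1, Grin2d, Grik3, Grik4, Grm2, Grm4, Cacng5 and Shank3, and the lowest for 4, Gria2, Gria3, Grin2a and Grm5. The median transcript GC content of the first 8 was 58.2% and of the other 4 was 42.8%. Against the 5 other CFA libraries, CFA 4 was above all of them for 14 members with a GC content of 46.8% to 65.1% and below all of them for 5 members of 36.8% to 44.8%. Over all genes tested, the log2 deviation of a gene from its mean over the libraries changed by 0.134 per 10 points of GC content in CFA 4, by -0.07 to -0.0272 in the 5 other CFA libraries and by -0.00157 to 0.0305 in the saline libraries. The same trend over the 32 members was 0.164 in CFA 4, -0.107 to -0.00949 in the 5 other CFA libraries and -0.0199 to 0.0928 in the saline libraries. The members thus followed the direction of all genes in each CFA library. Leaving out CFA 4 moved the differences of 15 members by over 1.5 times or turned their sign. Of those not given above, it was 0.11 for Gria3, 0.12 for Grin2a, -0.09 for Grik3, -0.04 for Grik5, -0.04 for Gria1, -0.07 for Grid1, -0.13 for Grm4, -0.05 for Grm8, -0.17 for Cacng5 and -0.0058 for Shank2, each in the direction it had with CFA 4. The sign turned for Grik4 (-0.0065), Cacng4 (-0.0036) and Grm5 (0.02).

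**Figure D3:**
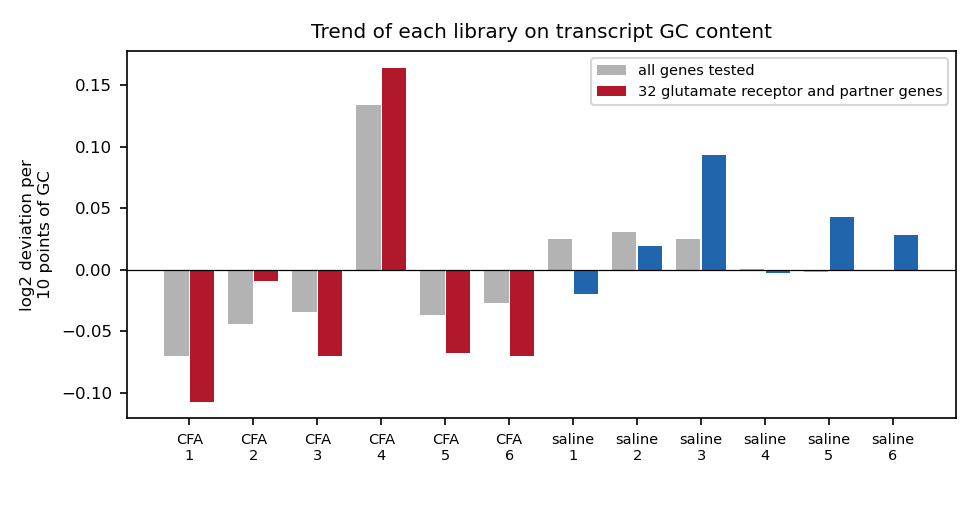
Trend of each library on transcript GC content, as the change of the log2 deviation per 10 points of GC, for all genes tested (grey) and for the 32 members (red for CFA, blue for saline). CFA 4 stands at 0.134 and 0.164, and the 5 other CFA libraries are below 0 on both counts.

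The difference between the groups followed GC content as well. Across the 32 genes, Spearman's rho between GC content and the CFA minus saline difference was -0.39, and over the 13330 genes with a GC value it was -0.18. Genes share libraries and are not independent replicates, so these are descriptions. Without CFA 4, which was singled out after its values were seen, rho was -0.45 over members and -0.34 over all genes. In that fit 12 of 32 members (37.5%) had an unadjusted p under 0.05 by limma, against 13.8% of all genes. Over the fits with 1 library left out, this count of members ran from 4 to 12, so 12 was the highest. Without CFA 4, 0 of 32 were past the adjusted threshold by limma, against 0.045% of all genes. Lower there were Grin1, Grin2b, Grin2d, Grin3a, Grik1, Dlg4, Shank1 and Shank3 (25% of members, against 8.06% of all genes), and higher were Gria2, Gria3, Grik2 and Grm7 (12.5%, against 5.77%). Grin1 was the 1 member of 32 whose groups no longer overlapped (3.12%, against 2.2% of all genes). Removing the GC trend within each library, an alternative chosen after seeing the data, brought rho over all genes to 0.0085 and over the members to -0.20. With the trend removed, the differences were -0.26 for Grin2b, 0.19 for Grm7, -0.14 for Shank1 and -0.09 for Grin1, and 0 of 32 passed.

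**Figure D4:**
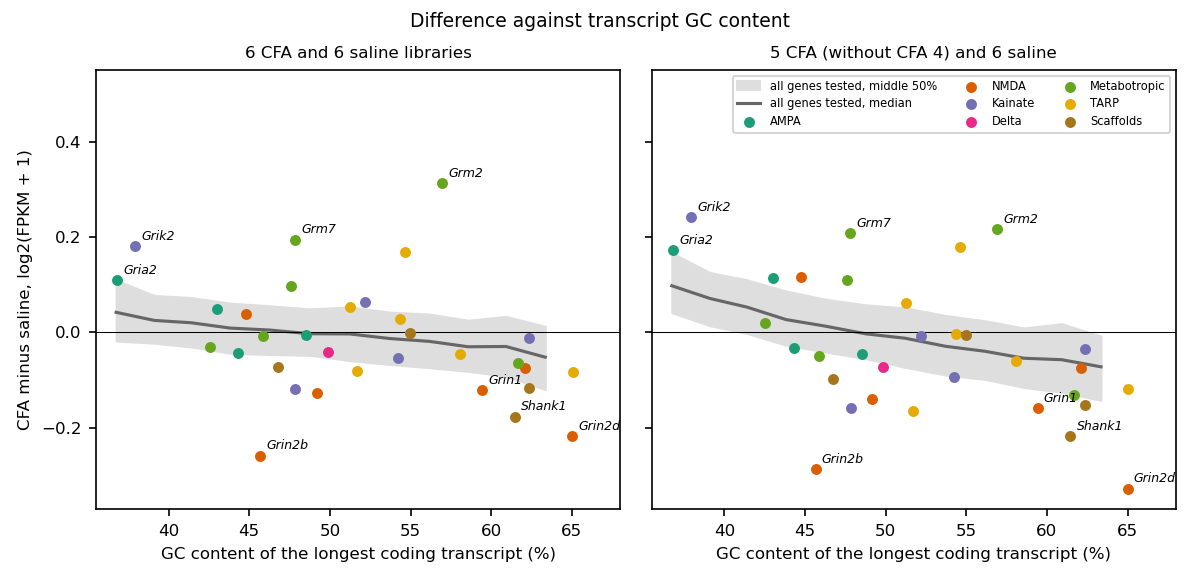
CFA minus saline differences, in units of log2(FPKM + 1), against GC content of the longest coding transcript, with 6 CFA libraries (left) and without CFA 4 (right). Coloured points are the 32 members by class (TARP stands for the AMPA receptor regulatory proteins). The line is the median of all genes tested in bins of GC content, and the band holds the middle 50% of them. In both panels the line slopes down, and Grin2b, Grm2 and Grm7 are among the members well off it. In the right panel Grin2d is as well.

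Markers of neighbouring regions are given beside Cacng5 and Grin2a, which were chosen after their values were seen, and their relation over libraries was not tested. Striatal projection neuron markers, 11 genes of which 10 were tested, summed to 191 to 413 FPKM in CFA libraries and 190 to 265 FPKM in saline libraries, with 10 of 10 tested members positive and a median difference of 0.43. Ppp1r1b, the striatal phosphatase regulator DARPP, was highest in CFA 1 (84.0 FPKM), CFA 6 (60.6 FPKM), saline 1 (43.4 FPKM) and CFA 5 (41.1 FPKM) and at most 27.4 FPKM in the 8 other libraries. Those 4 libraries had the 4 lowest values of Cacng5, at 28.0, 24.5, 23.8 and 27.3 FPKM in the same order, while the 8 others had 31.8 to 43.5 FPKM. Adjusting for the mean of the striatal list, 0 of 32 members passed. The difference of Grin2d was then -0.11, of Cacng3 0.09, of Cacng5 0.10, of Grin2a -0.04, of Shank1 -0.12 and of Grm7 0.14. Those of Grin2b, Grin1 and Grin3a moved little, to -0.26, -0.11 and -0.13 from -0.26, -0.12 and -0.13 in the main fit. That of Grm2 grew to 0.53 from 0.31. Adjusting instead for the mean of the pan-neuronal list, Grin3a shrank to -0.05 and Shank1 to -0.12 from -0.18 in the main fit. Grin2b, Grin1 and Grm7 were then -0.28, -0.12 and 0.20.

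Cortical and hippocampal excitatory neuron markers, 9 genes, summed to 15.7 to 125 FPKM in CFA libraries and 11.9 to 108 FPKM in saline libraries, so that the groups overlapped while libraries within a group differed. Slc17a7, the vesicular glutamate transporter of those neurons, was highest in CFA 6 (78.7 FPKM), CFA 3 (77.2 FPKM) and saline 1 (69.7 FPKM) and lowest in CFA 4 (5.22 FPKM), CFA 2 (5.01 FPKM), CFA 1 (4.70 FPKM) and saline 4 (2.38 FPKM). Grin2a was highest in CFA 6 (5.63 FPKM), saline 1 (5.58 FPKM) and CFA 3 (5.39 FPKM), the same 3 libraries. The order did not match further down: CFA 1, among the lowest in Slc17a7, had 4.68 FPKM of Grin2a, and saline 5, with 18.5 FPKM of Slc17a7, had 3.81 FPKM. Neurod6, a defining marker of cortical excitatory neurons, was at 0 in CFA 4 and at 7.99 FPKM in CFA 3. The part of these markers in the members' differences was not tested beyond the fits with each list mean as a covariate. Adjusting for the mean of the cortical list, which was added once the data had been seen, 0 of 32 passed by limma, against 0.0225% of all genes, and 8 of 32 (25%) had an unadjusted p under 0.05, against 8.63% of all genes.

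**Figure D5:**
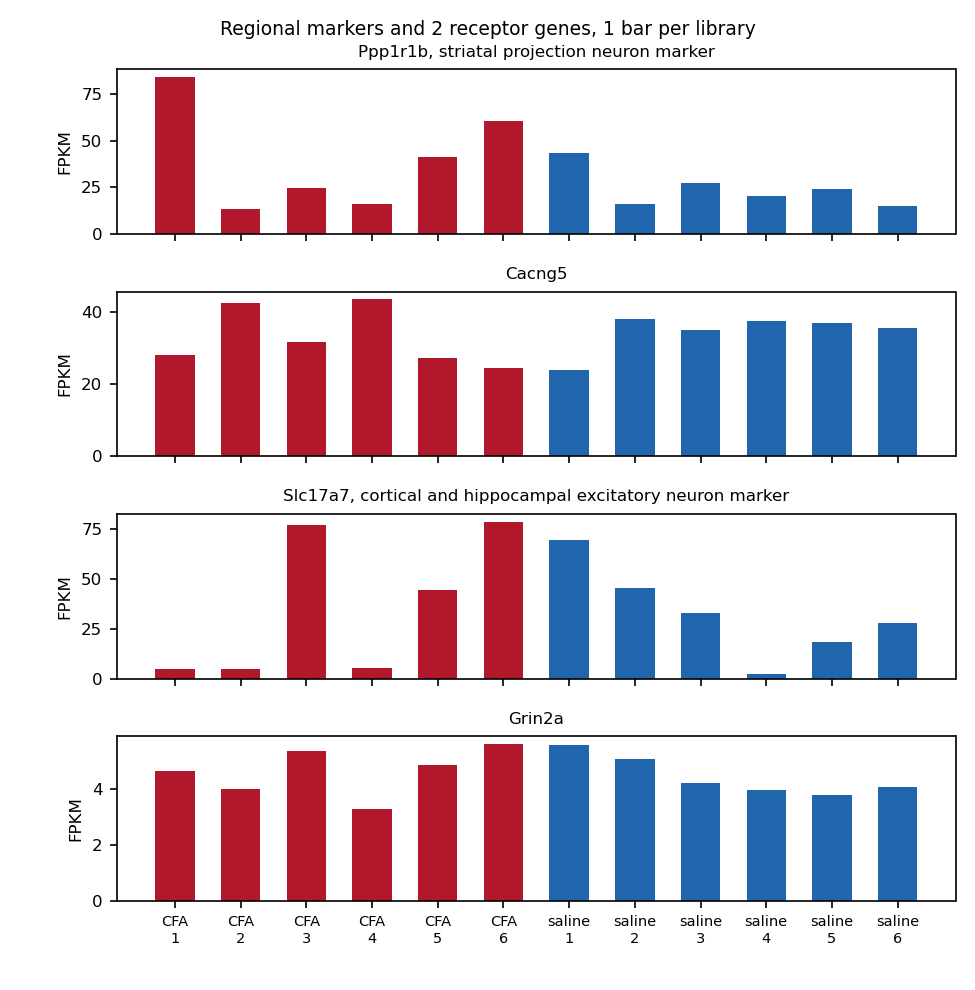
FPKM of Ppp1r1b, Cacng5, Slc17a7 and Grin2a in each library, CFA in red and saline in blue. The 4 libraries highest in Ppp1r1b are the 4 lowest in Cacng5, and the 3 libraries highest in Slc17a7 are the 3 highest in Grin2a.

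Other genes of the pathway showed no call either. Of genes of the same families outside the members, Grin3b, Grm6, Cacng1 and Cacng6 did not reach the filter, and Grm6 was at 0 in all 12 libraries. Of 15 other auxiliary and assembly proteins, 8 were positive and 7 negative (median 0.02, 0 past the threshold by limma, 1 at an unadjusted p under 0.05). That 1 was Cnih2, a cornichon that escorts AMPA receptors to the surface, at 242, 260 and 282 FPKM in CFA libraries against 265, 299 and 301 FPKM in saline libraries (difference -0.16, SE 0.05, limma adjusted p = 0.365). Its 4 lowest CFA libraries were below the saline range. Of the others, Olfm1 was the next highest at 72.5 to 139 FPKM in CFA libraries and 83.8 to 130 FPKM in saline libraries, and the differences of Syndig1, Olfm1, Porcn and Frrs1l lay between -0.10 and 0.18.

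Of 24 other postsynaptic density proteins, 7 were positive and 17 negative (median -0.05), with 0 past the threshold by limma and 2 at an unadjusted p under 0.05. These were Camk2a, the calcium-dependent kinase of spines, at 290 ± 18.8 FPKM in CFA and 317 ± 19.97 FPKM in saline libraries (SD, n = 6 each; difference -0.13, limma adjusted p = 0.635), and Iqsec2, an Arf exchange factor, at 20.7 ± 1.17 FPKM in CFA and 22.5 ± 1.502 FPKM in saline libraries (difference -0.11, limma adjusted p = 0.640). Of 7 tested genes of glutamate release and clearance, 1 was positive and 6 negative (median -0.07), with 0 past the threshold by limma and 0 at an unadjusted p under 0.05. Slc1a2, the main astrocytic glutamate transporter, had 205, 244 and 294 FPKM in CFA libraries and 262, 277 and 301 FPKM in saline libraries (difference -0.19, SE 0.09, limma adjusted p = 0.663). Glul, the glutamine synthetase of astrocytes, was the highest of these at 491 ± 19.7 FPKM in CFA and 516 ± 21.2 FPKM in saline libraries (SD, n = 6 each; difference -0.07, limma adjusted p = 0.740). Pan-neuronal markers were negative in 11 of 11 genes with a median difference of -0.08, and GABAergic markers in 3 of 3 with a median of -0.09, against medians of -0.04 over the 32 members, -0.12 over the NMDA genes and -0.09 over the scaffolds. Oligodendrocyte markers were positive in 6 of 6 with a median of 0.15. They summed to 1011 to 2397 FPKM in CFA (median 1699) and 764 to 1983 FPKM in saline libraries (median 1712). Astrocyte markers were positive in 4 and negative in 4. The part of oligodendrocyte and astrocyte markers in the members' differences was not tested.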

How the data were processed

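Bulk RNA of lateral septum was measured in 12 libraries, 6 CFA and 6 saline, grouped by their titles. The authors deposited FPKM per gene with a gene length. The submitters' processing notes name HISAT2 2.0.5, an aligner, and the mm10 build. How reads were counted, with which annotation and whether by strand, is not given in the sources used here, so reads of a gene and of an overlapping or antisense neighbour may be mixed. FPKM times gene length stepped in whole reads (100% of values within 0.01 read), which gave the depth and the reads used for voom. The FPKM divisor that these steps imply ran from 0.990 times the summed reads in saline 5 to 1.033 times in CFA 6. FPKM and voom thus scale the libraries somewhat differently. The members had 378 to 35724 recovered reads per library. Another table held 6 columns that matched none of the samples by name, and these were left out.

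The filter kept genes at 1 FPKM or more in 6 or more libraries. Values as log2(FPKM + 1) were fitted with limma 3.58.1 (R 4.3.3), allowing a mean-variance trend. Tests were two-sided and p-values were adjusted by Benjamini-Hochberg over 13345 genes. The pseudocount understates changes of low genes. The exact permutation test covered all 924 assignments of 6 of 12 libraries, and the smallest p it allows is 0.00216. GC content came from the longest protein-coding transcript in GENCODE M21, whose coordinates matched 32 of 32 members, and 99.9% of genes tested had a value. No library was treated as a repeat. The most similar, saline 4 and saline 6, had a chi-square per degree of freedom of 8.42 on the recovered reads. That value cannot tell whether separately prepared libraries came from the same animal.

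The members and lists were chosen with earlier results of these data known. Named with full values were the 2 members with the highest mean of each class and the 8 with the smallest p, and of each other list up to 4 genes with the smallest p and 2 with the highest mean. Gria3, Gria4, Grin2a, Grin2c, Grik1, Grik2, Grik4, Grm2, Grm4, Grm8, Cacng2, Cacng4, Cacng5, Shank2, Ppp1r1b, Neurod6 and Slc17a7 were described after their values were seen. Some genes that the rule names are not reported here. Alternatives covered the pseudocount, filter, scaling, voom, a replicate block, left-out libraries, covariates and GC content. Tables were made with pandas 2.3.3 in Python 3.11.15, and plots with matplotlib 3.10.9.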

Additional observations from a re-analysis of the deposited data

Results flagged for a closer look

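Within groups of 6 libraries, 5 values stood far from the nearest other library of their group, among 64 groups examined, where chance flags about 1 in 20. Grin1 was 28.7 FPKM in saline 3, below the 29.4 FPKM of the next, in a group that spanned less than 1 FPKM. Grin2d was 6.74 FPKM in saline 1, the next lowest being 7.86 FPKM. Cacng5 was 23.8 FPKM in saline 1, the next being 34.95 FPKM, and saline 1 was also the saline library highest in Ppp1r1b. Grik4 was 5.23 FPKM in CFA 4, above the 4.02 FPKM of the next, in the library with the trend on GC content described above. Grm8 was 3.08 FPKM in saline 5, the next highest being 2.79 FPKM.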

How the results depend on the processing

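The count of members past the threshold was 0 in the main comparison and in 26 alternatives, with the smallest adjusted p at 0.102 adjusting for the striatal list mean and 0.104 without CFA 4. The median over the members was -0.0482 to -0.0142 with 1 library left out. It was 0.0024 as TPM. The count over all genes, 4, was 2 without a filter, 2 with the GC trend removed, 1 with Xist as a covariate, 1 with the pan-neuronal list mean, 8 with the striatal list mean and 1 over the libraries with Xist. Leaving out 1 library gave 1 to 11 genes: 10 without CFA 1, 1 without CFA 6, 2 without saline 2, 11 without saline 3, 2 without saline 4 and 1 without saline 5. The replicate block gave 1 gene and 0 members. Between CFA and saline libraries of the same number, correlations of deviations were -0.0118 to 0.159, over 0.1 in 2 of 6. Of the 6 CFA libraries, 3 correlated best with their own number. With 6 pairs, these values cannot tell whether libraries of the same number share more than the number, and the labels do not state it.

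Over the 32 members and the 13 other genes named with a test, 1113 of 1165 values under the alternatives kept their sign, and no value passed the threshold. The sign turned in the following. As TPM, Gria1 was 0.0348, Grik5 0.0265, Grm5 0.00925, Grm8 0.0239 and Shank2 0.0381. By voom, Gria1 was 0.00812 and Shank2 0.0120. With Xist as a covariate, Gria4 was 0.0377 and Cacng4 -0.0269. With the pan-neuronal mean, Gria1 was 0.0234, Gria4 0.0114, Grik5 0.0309 and Cacng4 -0.0409. With the striatal mean, Gria1 was 0.0721, Grin2a -0.0382, Grm8 0.0783, Cacng5 0.101, Shank2 0.00163 and Syndig1 -0.0125. Over the libraries with Xist, Gria3 was -0.0173, Gria4 0.000308, Grin2c 0.0288, Grm4 0.00961 and Olfm1 -0.0254. Without saline 3 and saline 5 together, Grin2a was -0.0183, Grik4 -0.00277, Grm4 0.00471, Grm8 0.0239 and Shank2 0.0290. With the GC trend removed, Grik5 was 0.0302 and Shank2 0.0182. With 1 library left out, Gria1 ranged from -0.0458 to 0.0459, Grik5 from -0.0372 to 0.0161, Grm5 from -0.0724 to 0.0195, Cacng4 from -0.0127 to 0.0648, Grik4 from -0.00650 to 0.0979, Grin2a from -0.0104 to 0.115, Grm8 from -0.0588 to 0.0504 and Shank2 from -0.0228 to 0.0168. The cause was not tested.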
